A study of Mus musculus with 12 samples.

Results

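The mitochondrial ribosomal protein genes are the nuclear genes that encode the protein part of the ribosome inside mitochondria. They were taken here as every protein-coding row of the count table whose symbol is Mrpl or Mrps followed by a number and at most 1 letter. The rule found 77 genes of the 41128 in the table, 48 named Mrpl and 29 named Mrps, spread over 17 chromosomes. Expression was measured by RNA-seq in 12 libraries of mouse haemogenic endothelium, the endothelium from which the first blood cells emerge. All 12 came from embryonic stem cells of an Ainv18 derivative in which doxycycline (Dox) switches on Sox7, an endothelial transcription factor. FLK1+ cells were sorted at day 3.5 of embryoid body differentiation and kept for 48 h in liquid blast culture, and then for 6, 12 or 24 h without Dox or with 1 µg/ml Dox. Each of the 6 groups held 2 libraries, all of the same inducible line. None of the 12 libraries came from cells that received Dox without carrying the inducible Sox7, so an effect of Dox itself and an effect of induced SOX7 cannot be told apart. The labels do not say whether replicates came from different cultures, and the p-values reflect only how far these libraries spread, which may be technical.

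The mitochondrial ribosome translates the few mRNAs of the mitochondrial genome, all of which encode subunits of the oxidative phosphorylation complexes. Its rRNAs are transcribed inside the organelle, whereas all of its proteins are made in the cytosol and imported, so the ribosome draws on both genomes. It descends from the bacterial ribosome, and tetracyclines such as Dox, which block bacterial translation at the small subunit, can also block mitochondrial translation. The question asked of these data was whether the genes for the ribosome's proteins responded when Dox was added.

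Sequencing depth ran from 13485804 to 35250074 counts per library, with 1 shallow library (at most 15429846 counts) and 1 deep library (at least 27516106) in each group. Sox7 stood at 77.9 and 81.7 CPM (counts scaled to library size) without Dox and at 326 and 314 CPM with Dox at 6 h. At 12 h it stood at 55.6 and 68.8 against 379 and 376 CPM, and at 24 h at 52.5 and 52.1 against 337 and 331 CPM, so every Dox library was above every untreated one. Summed pluripotency markers ran from 1.85 to 3.34 CPM and summed endothelial markers from 1741 to 2608 CPM, the latter higher in both Dox libraries than in both untreated ones at each hour (2305 and 2409 against 1892 and 2094 CPM at 12 h). Of 7 endothelial markers 2, 4 and 5 rose with Dox at 6, 12 and 24 h and 0 fell. Of 8 blood markers 4, 4 and 8 fell at those hours and 0 rose, with medians of -0.46, -0.52 and -1.53 on the log2 scale. Over all tested genes 1.54%, 6.76% and 11.0% were called at the same hours. Summed smooth muscle markers ran from 4535 to 6101 CPM, and summed cardiac markers from 10.2 to 15.9 CPM. Of 3 smooth muscle markers 2 fell at 12 h, and 0 were called at 6 h or 24 h. Of 3 cardiac markers 1 rose at 24 h, and 0 were called at 6 h or 12 h. The part of these marker changes in the Dox results below was not tested. Fewer cells of a type and less RNA per cell cannot be told apart in these bulk samples.

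Most of the genes were well expressed, over a wide range of levels. RPKM values, which are scaled to gene length as well as library size and so allow genes to be compared, had a median of 13.8 over the 74 genes with a mean count of at least 50, with quartiles of 7.43 and 26.1. Mrpl34, a small protein of the large subunit, had the highest mean level at 70.2 RPKM (65.2 to 78.2 over the 12 libraries). It was followed by Mrpl12 at 53.7 RPKM (42.1 to 68.2), which forms the flexible stalk that recruits translation factors, and Mrpl10 at 51.6 RPKM (46.9 to 57.8), which anchors the stalk. Mrps16, named for the small subunit, had 48.7 RPKM (38.0 to 64.3). The range of Mrpl34 overlaps only that of Mrpl12 among these, and Mrpl34 was above Mrpl12 in each of the 12 libraries. The ranges of Mrpl12, Mrpl10, Mrps16 and Mrps6 (mean 47.6, 39.7 to 60.4) all overlap, so these ranges do not separate their order. Mrps12, a protein of the decoding centre, lay near the middle at 13.4 RPKM (12.4 to 14.8). The lowest of the 74, Mrpl48, stood at 1.48 RPKM (1.20 to 1.72), so that the 74 levels spanned 47.4-fold. Levels between libraries varied far less than levels between genes: the highest library was a median 1.44 times the lowest, and 3 genes reached a ratio of 2 or more.

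**Figure D1:**
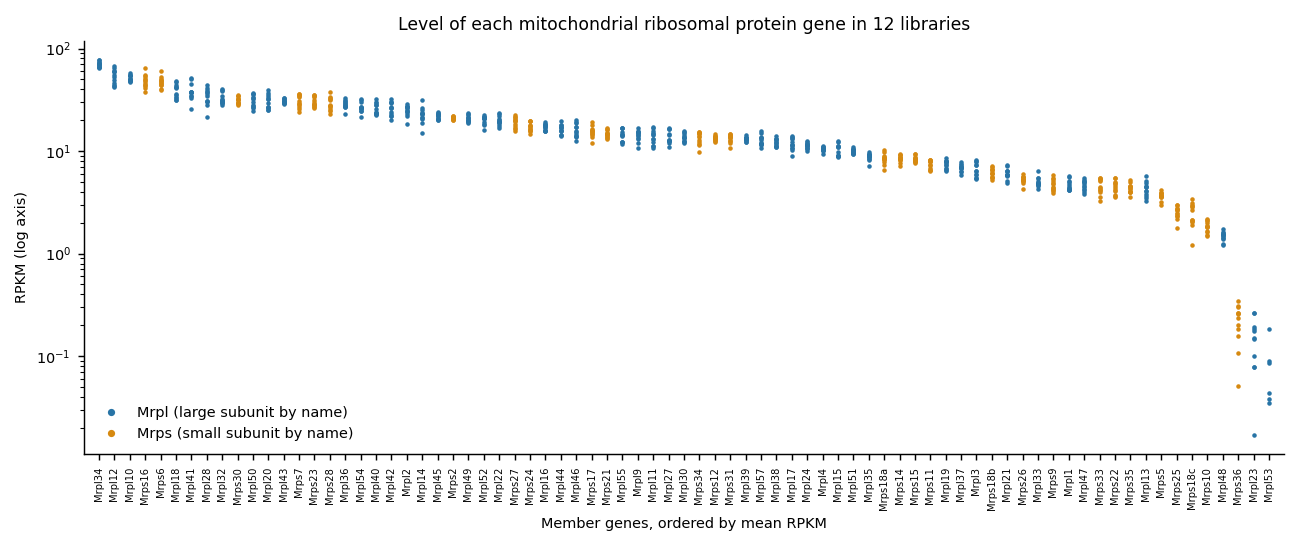
Level of each of the 77 genes in RPKM (vertical log axis), 1 point per library, with genes ordered by their mean and coloured by the subunit their name gives. Mrpl34 leads at a mean of 70.2 RPKM, the level falls smoothly to Mrpl48 at 1.48, and Mrps36, Mrpl23 and Mrpl53 lie apart below it; values of 0 cannot be drawn on the log axis.

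Only 3 genes had a mean count under 50, and all 3 overlap or resemble another annotated gene. Mrpl53 had a mean of 0.583 counts per library (0.0398 RPKM), and 88.0% of its exon length lies under the same-strand gene Gm42688. Mrps36, which is not a stable part of the ribosome, had a mean of 7.42 counts (0.223 RPKM), and Mrpl23, a protein near the exit of the peptide tunnel, 6.17 counts (0.137 RPKM). In GENCODE M21 transcripts, 11.3% of the 75-base windows of Mrps36 and 10.1% of those of Mrpl23 also occur exactly in other genes, their own pseudogenes among them. How reads shared between genes were counted is not given in the sources used here. Mrpl53 and Mrps36 did not pass the filter on low counts, so 75 of the 77 genes were tested. Of the 76 genes found in M21, 31 had no shared window and 18 had at least 10%. These 18 include genes with mean counts above 50, such as Mrpl19 (36.2%) and Mrpl22 (17.3%), so sharing does not set the low genes apart.

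Of the 77 genes, 68 had an entry in the RefSeq promoter table (GRCm38.p6), which holds 250 bases before and 50 bases after each start. The motif CCGGAAG, the core bound by ETS factors, was found on either strand in 25 of the 68 (36.8%) and in 13.2% of all 15796 protein-coding genes with an entry. The NRF1 palindrome (GCGC, any 2 bases, GCGC), named for a regulator of nuclear genes for mitochondrial proteins, was found in 14 (20.6%, against 10.1%). The YY1 motif AAGATGGC was found in 12 (17.6%, against 3.62%). CCAAT was found in 27 (39.7%, against 42.1%) and the E-box CACGTG in 5 (7.35%, against 9.18%). A match is only a run of letters and was not tested for binding. The 100 bases before the start are printed for 3 genes that recur in the results: Mrps18a, the gene that was higher with Dox, Mrpl12, which had the smallest adjusted p between untreated hours, and Mrpl34, the most abundant. Capitals mark CCGGAAG in Mrps18a (chr17:46110904-46111003, plus strand) and Mrpl34 (chr8:71464826-71464925, plus strand), and the NRF1 palindrome in Mrpl12 (chr11:120484537-120484636, plus strand).
Mrps18a: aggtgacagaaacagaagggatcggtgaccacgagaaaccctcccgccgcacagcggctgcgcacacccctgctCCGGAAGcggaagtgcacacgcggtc
Mrpl12: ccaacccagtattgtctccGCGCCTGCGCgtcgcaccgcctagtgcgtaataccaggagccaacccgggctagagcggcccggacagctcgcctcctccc
Mrpl34: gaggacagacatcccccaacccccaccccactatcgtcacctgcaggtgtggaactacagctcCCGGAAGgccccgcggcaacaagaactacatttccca

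The 77 genes together took a small and slowly declining share of each library. At 6 h their summed counts were 0.279% and 0.261% of the effective library without Dox and 0.265% and 0.288% with Dox. At 12 h the shares were 0.271% and 0.256% without Dox and 0.233% and 0.247% with Dox, and at 24 h 0.229% and 0.229% against 0.228% and 0.218%. The treated libraries lay below the untreated ones at 12 h and, by a narrow margin, at 24 h, and overlapped them at 6 h. Between 12 h and 24 h without Dox, the mean share went from 0.263% to 0.229%.

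**Figure D2:**
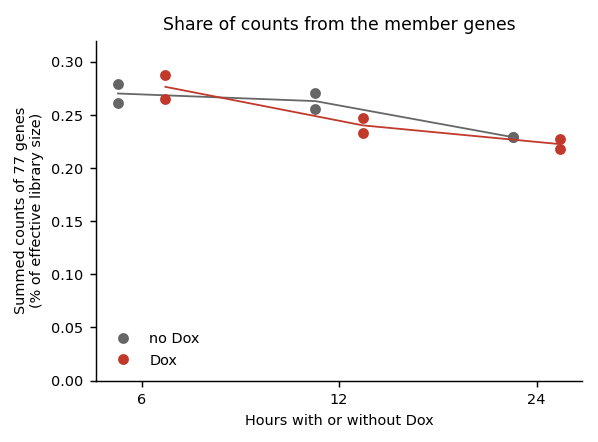
Summed counts of the 77 genes as a percentage of the effective library size (vertical axis, from 0) by hours with or without Dox, drawn evenly spaced; points are libraries and lines join group means. The share goes from 0.270% at 6 h to 0.229% at 24 h without Dox, and the Dox libraries lie below the untreated ones at 12 h.

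Dox changed no mitochondrial ribosomal protein gene detectably after 6 h. All tests below are edgeR's quasi-likelihood test on the counts with Benjamini-Hochberg adjustment over all 15347 tested genes, a gene is called at an adjusted p under 0.05, and ± gives the standard error of a log2 fold change. At 6 h 0 of the 75 genes were called, beside 1.54% of all tested genes (0.821% higher and 0.717% lower). An unadjusted p under 0.05 was reached by 3 of the 75, all higher with Dox, beside 1597 of all 15347 tested genes (845 higher and 752 lower). DESeq2 and limma each called 0, beside 1.33% and 0.471% of all genes they tested. The median log2 fold change was 0.02 over the 75 genes and 0.01 over all tested genes. The smallest adjusted p belonged to Mrpl13, a conserved large-subunit protein, at a log2 fold change of 0.32 ± 0.09 (adjusted p = 0.0782). Mrpl13 was called without the filter on low counts (log2 fold change 0.31, adjusted p = 0.0307) and without replicate 1 of the Dox group (adjusted p = 0.0348). Mrpl20 followed at 0.19 ± 0.09 (adjusted p = 0.437) and Mrpl1, the protein of the other stalk of the large subunit, at 0.22 ± 0.11 (adjusted p = 0.464). For 73 of the 75 genes the 95% interval of the fold change lay within 1.5-fold in either direction.

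After 12 h the genes stood slightly lower with Dox, and 4 of them fell past the threshold. These were Mrpl18, Mrps7, Mrpl15 and Mrps34, 5.33% of the 75, where 6.76% of all tested genes were called (3.51% lower and 3.26% higher), so the share of genes called was near the background. The effects were small but mostly of 1 sign: 65 of the 75 log2 fold changes were negative, beside 8007 of all 15347 tested genes. The median over the 75 was -0.14, beside -0.01 over all tested genes. At an unadjusted p under 0.05 there were 19 genes, all lower, beside 3076 of all tested genes (1395 higher and 1681 lower). DESeq2 called 2 genes, Mrpl18 and Mrps7, and limma on the RPKM values called 0. Both also called fewer of all genes they tested, 4.98% with DESeq2 and 2.26% with limma. The 95% interval lay within 1.5-fold for 72 genes. The most negative value, -0.31 ± 0.12 for Mrps25, was not called (adjusted p = 0.109), and 69.8% of that gene's exon length overlaps Nr2c2 on the opposite strand.

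Mrpl18 (ENSMUSG00000057388, chromosome 17, 12911349 to 12916345 on GRCm38, minus strand) is the counterpart of the bacterial protein that holds the smallest rRNA of the large subunit. At 12 h its untreated libraries stood at 65.7 and 64.5 CPM and its Dox libraries at 53.2 and 54.5 CPM, with no overlap. It fell by 0.28 ± 0.07 on the log2 scale (adjusted p = 0.0171). Its libraries overlapped at 6 h, with 71.0 and 64.6 CPM untreated and 63.5 and 73.6 CPM treated. At 24 h it had 50.5 and 51.3 CPM untreated and 48.3 and 48.5 CPM treated, and was not called (-0.07 ± 0.07, adjusted p = 0.65).

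Mrps7 (ENSMUSG00000046756, chromosome 11, 115603925 to 115608036, plus strand) sits in the head of the small subunit. At 12 h it stood at 78.8 and 75.8 CPM untreated and at 60.4 and 65.7 CPM treated. The difference was -0.30 ± 0.08 (adjusted p = 0.0188), without overlap. At 24 h the untreated libraries had 57.4 and 65.1 CPM and the treated ones 64.3 and 54.5 CPM, so the groups overlapped (-0.04 ± 0.08, adjusted p = 0.843).

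Mrpl15 (ENSMUSG00000033845, chromosome 1, 4773206 to 4785739, minus strand), a conserved large-subunit protein, had 67.7 and 68.4 CPM untreated and 55.5 and 60.3 CPM treated at 12 h. It fell by 0.24 ± 0.07 on the log2 scale (adjusted p = 0.0389). Mrps34 (ENSMUSG00000038880, chromosome 17, 24895116 to 24897502, plus strand) is a small-subunit protein with no bacterial counterpart, needed for the stability of the small-subunit rRNA. It had 32.6 and 31.6 CPM untreated and 25.5 and 27.1 CPM treated at 12 h, and fell by 0.29 ± 0.09 (adjusted p = 0.039). Mrps34 shares ground with its neighbours: 37.0% of its exon length overlaps Nme3 on the same strand and 63.4% overlaps Mapk8ip3 on the opposite strand, so its reads cannot be assigned with certainty. Each of the 4 calls at 12 h was lost without replicate 1 of the untreated group, without replicate 2 of the untreated group, or without replicate 1 of the Dox group, and those of Mrpl18 and Mrps34 also without replicate 2 of the Dox group. Their log2 fold changes were negative in all 13 alternative fits of that hour, from -0.348 to -0.165.

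The lower levels at 12 h were seen in libraries of both depths. Compared deep with deep and shallow with shallow, the median log2 fold change of the 75 genes was -0.11 and -0.14, and 54 genes were negative in both. That count was not made over all tested genes, and the pairs use the same 4 libraries that gave the result at 12 h. At 6 h the same medians were 0.03 and 0.02, and at 24 h -0.02 and -0.07. The size of the shift at 12 h depended on single libraries, from a median of -0.06 without untreated replicate 1 to -0.18 without untreated replicate 2. Summed blood markers were 1446 and 876 CPM in those 2 untreated libraries and 1317 and 1208 CPM with Dox. The sum is mostly 1 globin gene, Hbb-bh1, which was not called at 12 h (log2 fold change 0.23), whereas 7 of the 8 blood markers were negative and 4 fell. The part of these markers in the result was not tested.

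**Figure D3:**
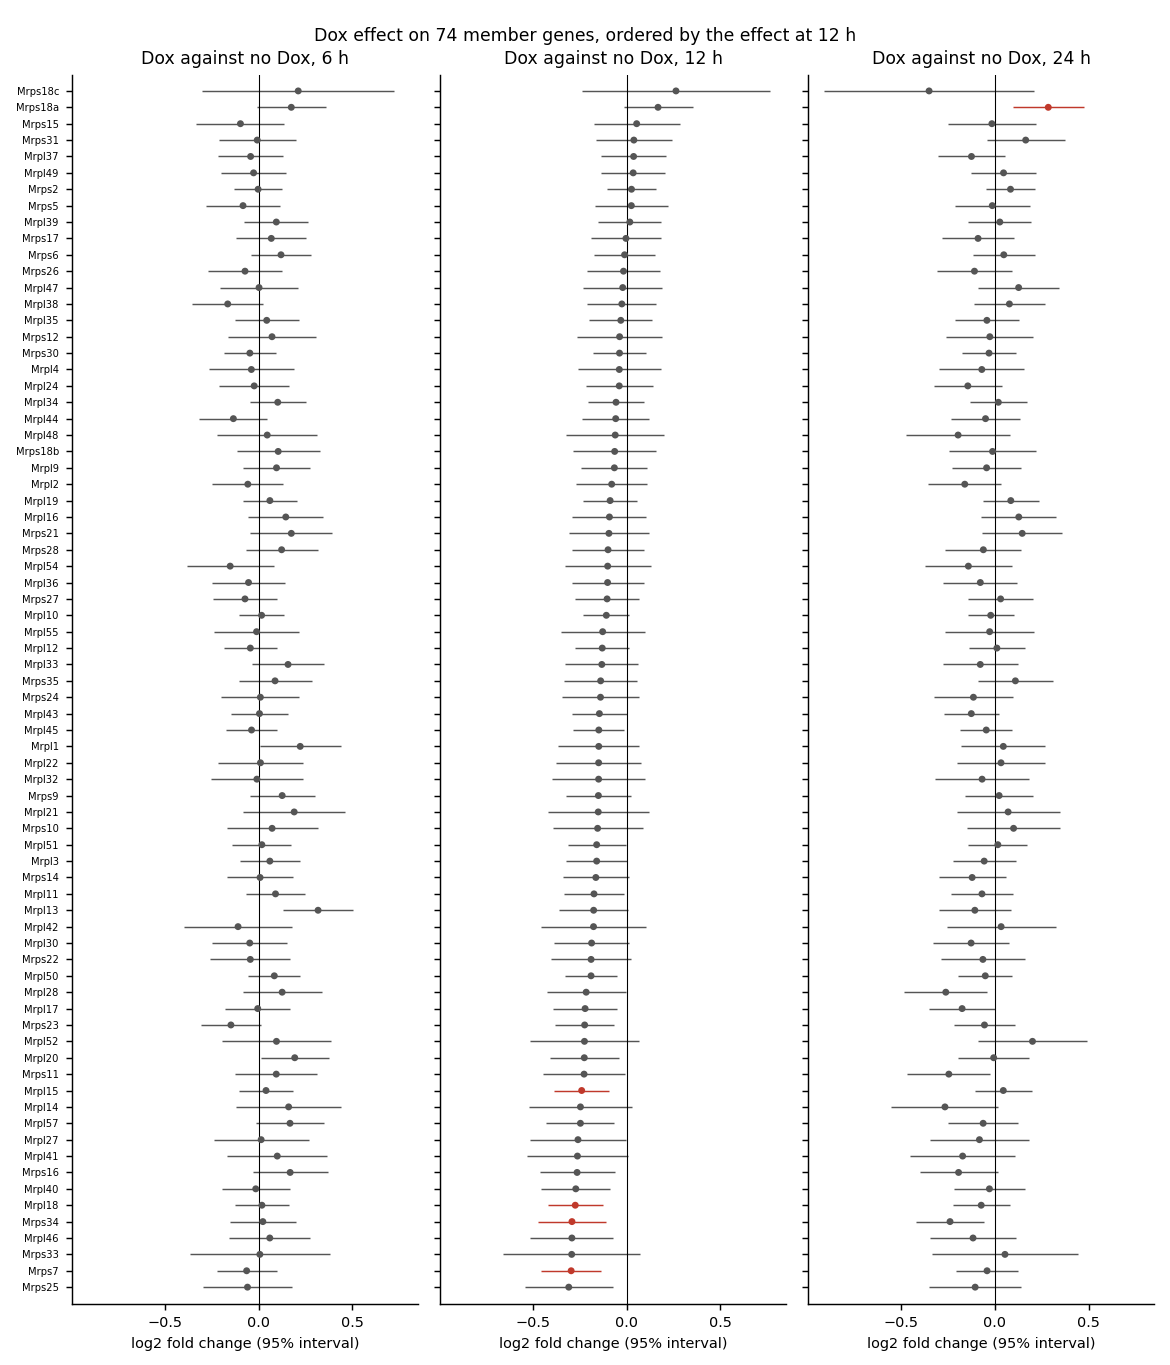
Log2 fold change, Dox against no Dox, at 6, 12 and 24 h for 74 genes with a mean count of at least 50, drawn with 95% intervals and ordered by the effect at 12 h; red marks an adjusted p under 0.05. Most points at 12 h lie left of 0 (65 of 75 tested genes), 4 of them called, while at 6 h and 24 h they lie on both sides and 1 gene, Mrps18a at 24 h, is called.

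After 24 h of Dox 1 gene of the 75 was called, Mrps18a, which was higher, where 11.0% of all tested genes were called (4.50% higher and 6.52% lower). The share among the 75 was 1.33%. An unadjusted p under 0.05 was reached by 4 genes, 1 higher and 3 lower, beside 3277 of all 15347 tested genes (1451 higher and 1826 lower). DESeq2 and limma each called 0 of the members, beside 8.71% and 7.65% of all genes they tested. The median log2 fold change was -0.04, beside -0.01 over all tested genes, and 73 genes had a 95% interval within 1.5-fold. The next genes by p were Mrps34 at -0.24 ± 0.09 (adjusted p = 0.0884), Mrpl28 at -0.26 ± 0.11 (adjusted p = 0.134) and Mrps11, a protein of the small subunit's platform, at -0.25 ± 0.11 (adjusted p = 0.168). Without Dox replicate 1 both Mrps34 (-0.38, adjusted p = 0.0265) and Mrpl28 (-0.49, adjusted p = 0.0123) were called lower, and Mrpl28 also without the filter on low counts (adjusted p = 0.0223).

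Mrps18a (ENSMUSG00000023967, chromosome 17, 46110986 to 46128910, plus strand) was the only gene of the 75 called higher in a Dox comparison. Despite its name it is part of the large subunit in mammals, and it is 1 of 3 paralogs of a bacterial small-subunit protein. It stood at 34.3 and 35.4 CPM untreated and at 36.2 and 41.8 CPM treated at 6 h. At 12 h the values were 33.4 and 31.2 against 33.6 and 39.3 CPM, and at 24 h 26.5 and 29.4 against 34.97 and 33.6 CPM. At each hour both Dox libraries were above both untreated ones, by a narrow margin at 6 h and 12 h. The log2 fold change was 0.18 ± 0.09 at 6 h (adjusted p = 0.529), 0.17 ± 0.09 at 12 h (adjusted p = 0.31) and 0.28 ± 0.09 at 24 h (adjusted p = 0.0424). The call at 24 h was lost without any 1 of the 4 libraries of that hour. Averaged over the 3 hours the effect was 0.21 ± 0.05 (adjusted p = 0.00524), and it was called in 19 of 20 alternative fits, the exception being limma on RPKM at an adjusted p of 0.0519. None of its exon windows is shared with another gene. Its paralogs did not pass the test: Mrps18b, a small-subunit protein, had an average effect of 0.01 ± 0.06 (adjusted p = 0.953) and Mrps18c, which replaces the bacterial protein in the small subunit, 0.04 ± 0.15 (adjusted p = 0.909). Whether the 3 paralogs differ in their response was not tested.

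**Figure D4:**
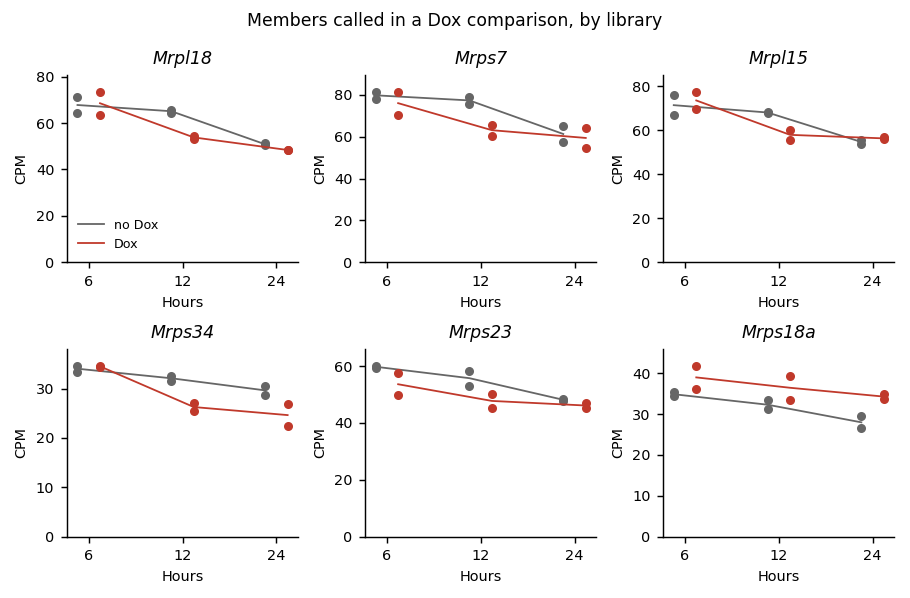
CPM (vertical axes, from 0) of the 6 genes called in a Dox comparison, by hours with or without Dox drawn evenly spaced; points are libraries, lines join group means, and grey is without and red with Dox. Mrpl18, Mrps7, Mrpl15 and Mrps34 separate at 12 h with Dox lower, whereas both Dox libraries of Mrps18a lie above the untreated ones at each hour.

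With the 3 hours averaged, which gives the narrowest intervals, 4 genes were called of the 75 (5.33%), beside 14.4% of all tested genes (7.17% higher and 7.21% lower). Mrps18a rose, and Mrps34, Mrps23 and Mrps7 fell. Mrps34 had an average log2 fold change of -0.17 ± 0.05 (adjusted p = 0.021) and Mrps7 of -0.13 ± 0.05 (adjusted p = 0.0463, and 0.0502 with the replicate number as a block). Mrps23 (ENSMUSG00000023723, chromosome 11, 88204388 to 88211507, plus strand), a small-subunit protein without a bacterial counterpart, stood at 60.1 and 59.5 CPM untreated and 49.8 and 57.6 CPM treated at 6 h. At 12 h it had 58.5 and 53.1 against 45.2 and 50.4 CPM, and at 24 h 48.6 and 47.7 against 47.1 and 45.2 CPM, so the Dox libraries were lower without overlap at each hour. Its average was -0.14 ± 0.04 (adjusted p = 0.0293), and that call was lost in 10 of 20 alternative fits. Mrps34 and Mrps7 lost theirs in 6 and 11 of 20, mostly where a single library was left out. The 3 genes that fell on average were all named for the small subunit, 3 of 28 tested Mrps genes beside 0 of 47 Mrpl genes, and the difference between the subunits was not tested. The 95% interval of the average effect lay within 1.5-fold for 74 of the 75 genes, with a median half-width of 0.11 on the log2 scale. Mrps12 in the decoding centre stood at 14.1 and 15.7 CPM untreated and 15.9 and 15.2 CPM treated at 6 h, and its average effect had a 95% interval from -0.13 to 0.14.

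The genes did not keep a common sign over time. Of the 75, 18 were negative at all 3 hours (24.0%) and 3 positive at all 3 (4%), where 19.5% and 19.2% of all tested genes were so. Across the 75 genes, which are not independent replicates, the Dox effects at 12 h and 24 h had a Pearson correlation of 0.29 and a Spearman correlation of 0.31. For 6 h and 12 h these were 0.22 and -0.08, and for 6 h and 24 h 0.08 and 0.10. A direct test of the effect at 24 h minus that at 6 h called 0 of 75 genes, beside 2.08% of all tested genes (0.626% higher and 1.45% lower). An unadjusted p under 0.05 was reached by 6, all negative, beside 1630 of all 15347 tested genes (656 positive and 974 negative). DESeq2 and limma called 0 of the 75.

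Grouped by subunit or by evolutionary origin, the genes gave medians that lay close together. At 12 h the median log2 fold change was -0.15 over the 47 tested Mrpl genes and -0.10 over the 28 tested Mrps genes, with 2 called lower in each. Over all tested genes the median at that hour was -0.01, and 3.51% were called lower. Placed by their position in the mammalian ribosome instead, which moves Mrps18a and Mrps30 to the large subunit, the medians were -0.15 over 49 and -0.12 over 26. Genes with a bacterial counterpart (45 tested) had a median of -0.13 at 12 h with 3 called lower, and those without (28 tested) -0.15 with 1 called lower. At 6 h the same medians were 0.06 and -0.01, beside 0.01 over all tested genes. Mrps30, a large-subunit protein despite its name, had an average effect of -0.04 ± 0.04 (adjusted p = 0.602), and Mrpl47, which has a bacterial counterpart although its neighbours by number do not, 0.04 ± 0.06 (adjusted p = 0.773). None of these differences between classes was tested.

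Between 12 h and 24 h without Dox, 17 of the 75 genes fell (22.7%), 0 rose and 58 were not called. Over all tested genes 22.4% were called, 10.2% lower and 12.2% higher. The share called either way was thus near the background, while the share called lower was above that of all tested genes, a difference that was not tested. The median was -0.19 beside 0.01 over all tested genes, and 72 of the 75 were negative, beside 7497 of all 15347. The untreated libraries of 12 h also serve as the control for Dox at 12 h, so the 2 comparisons share them and were not set against each other. Of the 17, 14 were Mrpl genes (of 47) and 3 Mrps genes (of 28): Mrpl3, Mrpl9, Mrpl11, Mrpl12, Mrpl13, Mrpl15, Mrpl18, Mrpl19, Mrpl20, Mrpl28, Mrpl40, Mrpl50, Mrpl55 and Mrpl57, with Mrps7, Mrps22 and Mrps27. Between 6 h and 12 h without Dox 0 of 75 were called, beside 7.46% of all tested genes (4.39% higher and 3.07% lower). An unadjusted p under 0.05 was reached by 3, all lower, beside 3139 of all 15347 tested genes (1674 higher and 1465 lower). DESeq2 and limma called 0 of the 75.

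The stalk protein Mrpl12 (ENSMUSG00000039640, chromosome 11, 120484613 to 120489065, plus strand) had the smallest p of these. Without Dox it stood at 114 and 102 CPM at 6 h, 99.1 and 88.5 CPM at 12 h and 76.2 and 70.3 CPM at 24 h. From 12 h to 24 h it fell by 0.36 ± 0.07 on the log2 scale (adjusted p = 0.000513). Its Dox effects were -0.04, -0.13 and 0.01 at 6, 12 and 24 h, none called. Mrpl18 fell by 0.35 ± 0.07 (adjusted p = 0.000633), Mrpl15 by 0.32 ± 0.07 (adjusted p = 0.00167), Mrpl20 by 0.38 ± 0.09 (adjusted p = 0.00242) and Mrpl11, which sits at the base of the stalk, by 0.33 ± 0.08 (adjusted p = 0.00272). The count of genes called ran from 8 without untreated replicate 2 of 24 h to 18 without untreated replicate 2 of 12 h. Leaving out replicate 1 of 12 h or replicate 1 of 24 h gave 10 each. Mrpl11 was not called without untreated replicate 2 of 24 h (adjusted p = 0.0748), and the other 4 genes with values here were called in all 13 alternative fits. Over the same interval 6 of 8 blood markers rose and 0 fell, with a median log2 fold change of 0.58. Of 7 endothelial markers 3 fell and 0 rose, with a median of -0.13. Over all tested genes 12.2% were called higher and 10.2% lower. The part of these markers in the lower values was not tested.

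Other nuclear genes of ribosomes and mitochondria were set beside these. Over all tested genes 3.51% were called lower and 3.26% higher at 12 h of Dox. At that hour 4 of 77 tested cytosolic ribosomal protein genes fell (Rpl23 by 0.21, Rpl7l1 by 0.20, Rpl5 by 0.33 and Rps26 by 0.23 on the log2 scale), and the median of the list was -0.11. Nuclear genes for oxidative phosphorylation subunits had a median of -0.11, and 5 of 78 fell, among them Atp5c1 of the ATP synthase at -0.24 ± 0.06 (adjusted p = 0.0107) and Ndufa1 of complex I at -0.34 ± 0.10 (adjusted p = 0.0313). Each of these named calls was lost without at least 1 library of 12 h, untreated replicate 1 in all 6 cases. Between 12 h and 24 h without Dox 29 of 77 cytosolic ribosomal protein genes fell and 0 rose, with a median of -0.25. Of the oxidative phosphorylation genes 15 of 78 fell and 3 rose, with a median of -0.12. Over all tested genes 10.2% were called lower and 12.2% higher in that comparison. The mitochondrial ribosomal protein genes, at -0.14 and -0.19 for the same 2 comparisons, had medians of the same sign as both lists, and no difference between the lists was tested.

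The RNA part of the mitochondrial ribosome, which is made from the mitochondrial genome, fell with Dox at 12 h and 24 h. mt-Rnr1, the small-subunit rRNA, had 227 and 207 CPM untreated and 168 and 147 CPM treated at 12 h, without overlap. It fell by 0.45 ± 0.08 on the log2 scale at 12 h (adjusted p = 0.000239) and by 0.28 ± 0.08 at 24 h (adjusted p = 0.0115), where it had 254 and 239 CPM untreated and 221 and 181 CPM treated. At 6 h, with 175 and 165 CPM untreated and 131 and 153 CPM treated, the difference of -0.25 was not called (adjusted p = 0.128). mt-Rnr2, the large-subunit rRNA, had 380 CPM in both untreated libraries and 289 and 258 CPM in the Dox libraries at 12 h. It fell by 0.47 ± 0.07 at 12 h (adjusted p = 1.68e-05) and by 0.21 ± 0.07 at 24 h (adjusted p = 0.0388). At 6 h its groups overlapped, with 375 and 314 CPM against 302 and 326 CPM. Averaged over hours, mt-Rnr1 fell by 0.33 ± 0.04 (adjusted p = 1.92e-06) and mt-Rnr2 by 0.27 ± 0.04 (adjusted p = 4.1e-06), and both averages were called in 20 of 20 alternative fits. The calls at 12 h were kept whichever single library was left out, although limma on RPKM lost that of mt-Rnr1 (adjusted p = 0.0717), whereas at 24 h both were lost without untreated replicate 1 and without Dox replicate 2, and that of mt-Rnr2 also without untreated replicate 2. DESeq2 and limma called neither at 24 h. A difference between the response of the rRNAs and that of the protein genes was not tested. How rRNA was selected against in these libraries is not given in the sources used here, so these counts may hold only part of it, and each rRNA is compared only with itself.

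**Figure D5:**
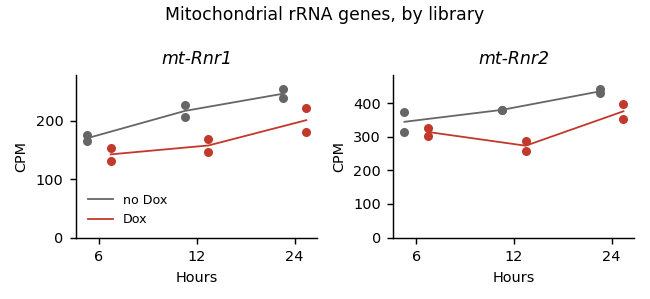
CPM (vertical axes, from 0) of the mitochondrial rRNAs mt-Rnr1 and mt-Rnr2 by hours with or without Dox drawn evenly spaced; points are libraries, lines join group means, and grey is without and red with Dox. At 12 h both rRNAs lie lower in the 2 Dox libraries (168 and 147 CPM for mt-Rnr1) than in the 2 untreated ones (227 and 207 CPM).

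Of the 13 protein-coding genes of the mitochondrial genome, whose mRNAs the mitochondrial ribosome translates, 3 were called higher with Dox at 24 h. For the test, 7 were tested, the other 6 (mt-Co2, mt-Co3, mt-Atp6, mt-Atp8, mt-Nd3 and mt-Nd4l) being listed at 0 counts in every library. How reads were assigned to these genes is not given in the sources used here, so the zeros are not read as absence of the RNA. At 24 h 3 of the 7 rose and 0 fell, beside 4.50% of all tested genes called higher and 6.52% lower. mt-Nd2, a complex I subunit, had 1185 and 1132 CPM untreated and 1904 and 1467 CPM treated, and rose by 0.54 ± 0.08 (adjusted p = 6.12e-06). mt-Cytb of complex III rose by 0.30 ± 0.07 (adjusted p = 0.00332) and mt-Nd4 by 0.29 ± 0.08 (adjusted p = 0.0121). At 12 h mt-Co1, the core subunit of complex IV, fell by 0.26 ± 0.06 (adjusted p = 0.00909), and at 6 h mt-Nd2 rose by 0.32 ± 0.08 (adjusted p = 0.0211). The call of mt-Nd2 at 24 h was kept in all 13 alternative fits. That of mt-Nd4 was lost without untreated replicate 1, untreated replicate 2 or Dox replicate 1, that of mt-Cytb without untreated replicate 2 or Dox replicate 1, and that of mt-Co1 at 12 h without Dox replicate 2. At 6 h the call of mt-Nd2 was lost without any single library other than untreated replicate 1. DESeq2 and limma on RPKM lost all 4 of these calls, of mt-Nd4 (adjusted p = 0.246 and 0.259), mt-Cytb (0.115 and 0.195), mt-Co1 (0.113 and 0.214) and mt-Nd2 at 6 h (0.429 and 0.431).

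Genes that work with the ribosome gave few calls. Over all tested genes 3.51% were called lower at 12 h, 6.52% at 24 h and 7.21% on average over hours, and 0.821% were called higher at 6 h. Of 7 tested ribosomal proteins with other names 1 fell at 12 h, Aurkaip1 of the small subunit, at -0.28 ± 0.07 (adjusted p = 0.0188). Of 12 translation factors 1 fell at 12 h, the initiation factor Mtif3, from 19.9 and 19.02 CPM to 14.4 and 15.3 CPM, or by 0.39 ± 0.11 on the log2 scale (adjusted p = 0.0226). The calls of Aurkaip1 and Mtif3 were lost without untreated replicate 1 or Dox replicate 1, and that of Mtif3 also without untreated replicate 2. Limma on RPKM lost both (adjusted p = 0.0998 and 0.0848), and DESeq2 lost that of Mtif3 (adjusted p = 0.0601). Of 22 assembly factors none was called at 6 h or 12 h, and Mpv17l2, which helps assemble the ribosome, fell at 24 h by 0.33 ± 0.11 (adjusted p = 0.0472). It missed the threshold in 8 of 13 alternative fits, among them DESeq2 (adjusted p = 0.117) and those without untreated replicate 1 or either Dox library. On average over hours Rbfa, which binds the small-subunit rRNA, fell by 0.17 ± 0.06 (adjusted p = 0.0312) and Mpv17l2 by 0.18 ± 0.06 (adjusted p = 0.0458). These averages were lost in 8 and 14 of 20 alternative fits, with DESeq2 among them for both (adjusted p = 0.0663 and 0.113). Of 17 mitochondrial tRNA synthetases Lars2, which charges leucine, rose at 6 h and fell at 24 h. It had 128 and 137 CPM untreated and 158 and 169 CPM treated at 6 h, and rose by 0.31 ± 0.07 (adjusted p = 0.0211). At 24 h it had 199.6 and 175 CPM untreated and 145 and 155 CPM treated, and fell by 0.32 ± 0.07 (adjusted p = 0.00235). The difference between those effects was -0.62 ± 0.10 (adjusted p = 0.000348). The call at 6 h was lost without any of 3 libraries, Dox replicate 1 being the exception, and that at 24 h without replicate 1 of either group. DESeq2 (adjusted p = 0.248) and limma on RPKM (0.345) also lost the call at 6 h, and limma that at 24 h (0.0702).

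Stress genes were measured as a further list, some of them known to rise through the transcription factor ATF4 when mitochondrial translation is blocked. The list also holds genes for mitochondrial chaperones and proteases. Of 19 tested 0 were called higher by edgeR at any hour, and 0, 3 and 1 were higher at an unadjusted p under 0.05 at 6, 12 and 24 h. Over all 15347 tested genes 0.821%, 3.26% and 4.50% were called higher at these hours. At that unadjusted p 845, 1395 and 1451 of them were higher. At 12 h 1 fell, the protease gene Yme1l1, by 0.20 ± 0.06 (adjusted p = 0.0429), where 3.51% of all tested genes were called lower. At 24 h 4 fell: Trib3 by 0.66 ± 0.12 (adjusted p = 0.000313), Ddit3 by 0.58 ± 0.11 (adjusted p = 0.000462), the folate enzyme Mthfd2 by 0.30 ± 0.07 (adjusted p = 0.00296), and Atf5 by 0.39 ± 0.11 (adjusted p = 0.0132). Over all tested genes 6.52% were called lower at 24 h. The calls of Yme1l1 and Atf5 were not followed in the alternative fits. Trib3 had 17.4 and 16.9 CPM untreated and 10.4 and 11.4 CPM treated at 24 h, and Ddit3 26.6 and 23.2 against 15.6 and 17.8 CPM, with no overlap for either. The direction was not the same at 12 h. There Trib3 was higher in both Dox libraries (15.7 and 14.4 against 13.2 and 11.0 CPM untreated), as was Mthfd2 (66.1 and 62.5 against 60.2 and 56.5 CPM). Ddit3 was lower in both at 12 h (15.9 and 15.7 against 19.7 and 16.4 CPM), and none of these genes was called at that hour. Averaged over hours, Atf4 itself fell by 0.12 ± 0.03 (adjusted p = 0.00947), a call lost without untreated replicate 2 of 6 h or untreated replicate 1 of 12 h. At 24 h all 8 blood markers fell, their sum being 1448 and 1319 CPM untreated and 872 and 696 CPM treated, and their part in these differences was not tested.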

How the data were processed

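RNA-seq of 12 libraries was used, 2 in each of 6 groups taken from the sample titles. Per the labels' protocols, 200 ng of total RNA and 14 PCR cycles were used in a strand-specific library kit, read as single 75-base reads. The submitters' processing notes name the build GRCm38 and, for processing, edgeR 3.8.5, R 3.1.0, SAMtools 0.1.19, Bowtie2 2.21 and bcl2fastq 2.16.0.10. Which tool counted reads, with which strand setting and annotation, is not given in the sources used here, so overlapping and near-identical genes are uncertain. The authors deposited whole-number counts per gene, not normalized, and RPKM values for the same genes.

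In the present work edgeR 4.0.16 (R 4.3.3) was run on the counts: filterByExpr (15347 genes kept), TMM scaling, and a quasi-likelihood fit with a mean per group over 12 libraries (6 residual degrees of freedom, biological coefficient of variation 4.71%). CPM uses the effective library size. The fit was tested on simulated data. Alternatives were other scalings and filters, a replicate or depth block, DESeq2 1.42.0, limma 3.58.1 on log2(RPKM + 0.1), and each library left out. For a gene's exon overlap and shared windows, GENCODE M21 was used, and promoters came from RefSeq. Replicates differed beyond counting noise (chi-square per degree of freedom 2.63 to 4.61). Genes were named by a rule: members called in a Dox comparison (the 4 smallest p-values where fewer were called), the 5 smallest p-values among those called between untreated hours, the 4 highest and 4 lowest levels, 7 members for their role, and up to 4 called genes of each related list; Mrps25, Mrps6, Atf5 and Yme1l1 were named after their values were seen. The members and lists were chosen with earlier results of these data known.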

Additional observations from a re-analysis of the deposited data

Results flagged for a closer look

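Rows for pseudogenes of 3 low or partly shared members carried counts of their own, outside the 77 genes. Mrpl23-ps1 had a mean of 446.1 counts per library, beside 6.17 for Mrpl23. Mrps36-ps2 and Mrps36-ps1 had 59.58 and 57 counts, beside 7.42 for Mrps36, and Mrpl48-ps had 460.8. A count of 0 allows up to 3 counts. None of the 4 was called in a Dox comparison. Whether reads of the parent genes were counted on these rows was not tested.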

How the results depend on the processing

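None of the named results that were refitted under each alternative reversed its sign, while the median over the genes at 6 h ran from -0.0346 to 0.0798 with 1 library left out. The number of genes called moved by over 1.5 times in the fits below, where a percentage in brackets is the share of all tested genes called. Without the filter on low counts it was 1 gene at 6 h (1.44%) and 2 at 24 h (7.19%). That fit also gave 2 for the difference of 24 h minus 6 h and 1 between untreated 6 h and 12 h. With DESeq2 it was 2 at 12 h (4.98%), 0 at 24 h (8.71%) and 2 on average (11.7%). With limma on RPKM it was 0 at 12 h (2.26%), 0 at 24 h (7.65%) and 2 on average. Leaving out 1 library gave 0 to 1 genes at 6 h, 0 to 3 at 12 h, 0 to 2 at 24 h, 1 to 7 on average, 0 to 1 for the difference, 0 to 1 between untreated 6 h and 12 h and 8 to 18 between untreated 12 h and 24 h. A lone library was then assumed to vary like the other groups.

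Deviations of same-numbered libraries correlated at -0.268, 0.0739 and 0.0655 at 6, 12 and 24 h. Same-numbered libraries differ in depth at each hour, so these values cannot show whether the replicate numbers pair the libraries. With the replicate number as a block, 0, 4 and 1 genes were called at the 3 hours, 3 on average and 17 between untreated 12 h and 24 h. Pairing by depth, which crosses the numbers within each hour, gave 0, 4, 1, 4 and 17. With 2 libraries a group, a 95% interval had a median half-width of 0.19 to 0.20 on the log2 scale at a single hour.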

Other observations

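Mrps18a, the gene that was higher with Dox, lies beside Vegfa, a growth factor of endothelium, which was looked at after the values were seen. The start of Vegfa, on the minus strand of chromosome 17, lies 78.6 kb before Mrps18a on the plus strand, so the starts of these genes face each other. Vegfa rose at each hour, by 0.23 ± 0.06, 0.51 ± 0.06 and 0.67 ± 0.06 on the log2 scale (edgeR's quasi-likelihood test, adjusted p = 0.0295, 3.26e-07 and 5.35e-10). At 24 h Vegfa stood at 108 and 98.2 CPM untreated and at 158 and 169 CPM treated. The nearer genes on the other side were not called at any hour: Mad2l1bp, 18.5 kb after Mrps18a, had an average effect of 0.01 ± 0.06, and Gtpbp2, 32.1 kb after it, -0.02 ± 0.05. Rsph9, whose span overlaps Mrps18a on the opposite strand, had an average of 0.10 ± 0.27.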
